A study of Rattus norvegicus with 12 samples.

Results

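The proteasome is the protease complex that degrades ubiquitin-tagged proteins in the cytosol and nucleus, and the genes described here encode its constitutive subunits together with its activators, its inhibitor and its assembly factors. They were taken by name, as protein-coding genes whose symbol begins with Psma to Psmg followed by a digit, leaving out the interferon-inducible catalytic subunits Psmb8, Psmb9 and Psmb10. The rule gave 44 of the 20455 genes with reads in rat kidney. Of these, 15 belonged to the core (Psma and Psmb) and 29 to the regulatory side (Psmc to Psmg). The symbols also brought in 3 genes that encode no subunit, activator, inhibitor or assembly factor. They were Psmc3ip, a factor of meiotic recombination, Psme3ip1, whose product interacts with the Psme3 activator, and Psme1-ps1, named as a pseudogene. Of the 44, 14 core and 28 regulatory genes had enough reads to be tested, and the other two were Psma8, the testis form of an alpha subunit, with 4 reads over all libraries, and Psme1-ps1 with 1 read. The genes Psmb10, Psmb11, Psmd9, Psmd10 and Psme3 were not analysed here by symbol.

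RNA was sequenced from rat kidney in a model of kidney injury after cardiopulmonary bypass, the heart-lung machine circuit of cardiac surgery (CPB in the labels). There were 4 sham libraries, 4 CPB libraries and 4 CPB+Nitrite libraries, in which the bypass animals also received nitrite, a source of nitric oxide. The strain, age, sex, nitrite dose, time of sampling and part of the kidney are not given in the sources used here, nor is it stated that each library came from a separate animal. If it did not, the p-values measure only the spread between libraries, which may be technical.

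The barrel of the proteasome is a stack of rings, the outer rings made of alpha subunits (Psma) that gate the entrance and the inner rings of beta subunits (Psmb), some of which carry the protease sites. A regulatory cap binds the end of the barrel. Its base holds the ATPases (Psmc) that unfold the substrate, and its non-ATPase subunits (Psmd) bind ubiquitin, remove it and brace the complex. Other activators can take the place of the cap, among them the ring of Psme1 and Psme2 products, which is known to be induced by interferon, and Psme4. Psmf1 encodes a regulator that inhibits the isolated barrel, and the Psmg genes encode chaperones that assemble the alpha ring. When proteasome activity falls, the transcription factor NFE2L1 is known to raise subunit genes together through antioxidant response elements, and NF-Y boxes are common in their promoters. Proximal tubule cells of the kidney reabsorb and break down much protein, although most of that breakdown is lysosomal.

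Promoter sequences are shown for 5 of the genes the results turn on: Psme2 and Psmd5, the regulatory genes with the largest rise after bypass, Psma5 and Psmb2, the alpha and the beta gene with the smallest p, and Psmb5, a catalytic subunit that did not pass the test, chosen after its values were seen. Each is the 250 bases before the gene's start in RefSeq, build GRCr8, printed 5′ to 3′ on the gene's strand, and these coordinates are not those of the files' build. Capitals mark matches, on either strand, to 4 motifs: TGANNNNGC (the core of the antioxidant response element), CCAAT (the NF-Y box), GAANNTTC (the heat shock element core) and GAAANNGAA (the interferon-stimulated response element core).
Psme2 (chr15:33052752-33053001, minus strand): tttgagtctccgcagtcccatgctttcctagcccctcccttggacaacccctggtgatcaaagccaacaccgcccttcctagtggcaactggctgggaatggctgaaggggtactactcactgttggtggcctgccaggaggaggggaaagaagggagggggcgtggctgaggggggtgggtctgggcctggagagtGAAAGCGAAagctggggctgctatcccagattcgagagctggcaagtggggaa
Psmd5 (chr3:38548491-38548740, minus strand): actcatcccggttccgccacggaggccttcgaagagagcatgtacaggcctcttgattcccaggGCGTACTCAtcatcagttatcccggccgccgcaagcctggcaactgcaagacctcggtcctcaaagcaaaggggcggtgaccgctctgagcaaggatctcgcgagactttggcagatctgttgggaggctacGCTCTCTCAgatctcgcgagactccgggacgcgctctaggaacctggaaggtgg
Psma5 (chr2:198584255-198584504, plus strand): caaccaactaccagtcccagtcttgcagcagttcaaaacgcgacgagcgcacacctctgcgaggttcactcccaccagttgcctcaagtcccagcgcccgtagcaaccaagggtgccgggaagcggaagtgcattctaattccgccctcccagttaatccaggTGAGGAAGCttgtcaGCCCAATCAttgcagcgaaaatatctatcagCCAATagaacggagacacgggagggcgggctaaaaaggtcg
Psmb2 (chr5:144254808-144255057, plus strand): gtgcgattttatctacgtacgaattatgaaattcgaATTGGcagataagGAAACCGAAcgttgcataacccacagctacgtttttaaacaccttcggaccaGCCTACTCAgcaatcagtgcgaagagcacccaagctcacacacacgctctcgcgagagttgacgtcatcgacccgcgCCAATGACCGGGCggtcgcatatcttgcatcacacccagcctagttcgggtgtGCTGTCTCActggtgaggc
Psmb5 (chr15:32047380-32047629, minus strand): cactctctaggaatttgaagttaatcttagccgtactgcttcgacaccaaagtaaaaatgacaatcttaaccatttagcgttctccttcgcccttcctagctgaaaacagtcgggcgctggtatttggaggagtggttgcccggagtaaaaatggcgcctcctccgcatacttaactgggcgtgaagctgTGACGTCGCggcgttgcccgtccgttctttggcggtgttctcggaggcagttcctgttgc

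In these windows Psme2 held only an interferon-stimulated response element match, and Psmd5 held antioxidant response element matches on the opposite strand. Psma5 and Psmb2 each held both antioxidant and NF-Y matches, and in each gene a CCAAT box and an antioxidant core overlapped within a single run of capitals. Psmb2 also held an interferon-type match. Psmb5 held 1 antioxidant core. A promoter was found for 39 of the 44 genes among 33469 RefSeq promoters. The antioxidant core was in 17 of the 39 (43.6%), against 34.7% of all promoters of that length, and CCAAT was in 18 (46.2%) against 34.0%. CCAAT stood in 9 of 14 core promoters (64.3%) and 9 of 25 regulatory ones (36.0%). The heat shock core was in 2 of 39 (5.13%, against 7.23% of all), and the interferon-type core in 6 (15.4%, against 8.12%). Of the 6, 4 were among the 13 promoters of genes that rose after bypass (Psmb2, Psmd7, Psmd11 and Psme2). The other 2 were among the 24 of genes that did not pass. In the same 13 and 24 promoters the antioxidant core was in 6 and 10, CCAAT in 7 and 10, and the heat shock core in 0 and 2. No test was made of these splits. Base composition was not matched between these sets, and a match is a run of letters only, not a bound site.

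The libraries held 16.8 M to 25.8 M estimated reads (M, mega), and levels are given as counts-per-million (CPM) after TMM scaling. CPM are not per transcript length, so levels are compared between libraries within a gene and not between genes. Kidney markers were present, among them Slc34a1 and Umod. CPB+Nitrite 2 stood apart from its group: its median correlation with the other libraries of the group was 0.918 against 0.943 to 0.947, Umod (thick ascending limb) was at 299 CPM against 3759 to 6502 in the other three, and Hbb (erythrocytes) was at 3542 CPM against 132 to 166. Results that change without it are given with both values. A gene rose or fell where its edgeR quasi-likelihood test had a Benjamini-Hochberg adjusted p under 0.05 over all 14664 genes tested. In whole tissue, a change in the number of cells of a type and a change in RNA per cell cannot be told apart.

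After bypass, 14 of the 42 tested genes rose against sham, 1 fell and 27 did not pass. This is 33.3% higher and 2.38% lower, where 21.7% of all genes tested were higher and 21.5% lower (43.2% in either direction). The median log2 change was 0.20 over the 42 genes and −0.05 over all genes. Of the 14 core genes, 5 rose and none fell (median 0.29), and of the 28 regulatory genes 9 rose and 1, Psmc3ip, fell (median 0.18). Without Psmc3ip, Psme3ip1 and Psme1-ps1, 8 of 26 regulatory genes rose and none fell. The 26 still hold activators, the inhibitor gene and assembly factors. Among the 8 were the assembly chaperone gene Psmd5, the inhibitor gene Psmf1 and the activator genes Psme1 and Psme2. The difference between core and regulatory genes was not tested. In 13 genes every CPB library lay above every sham library and in 2 every one lay below, where 23.5% and 24.8% of all genes were separated in these directions.

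**Figure D1:**
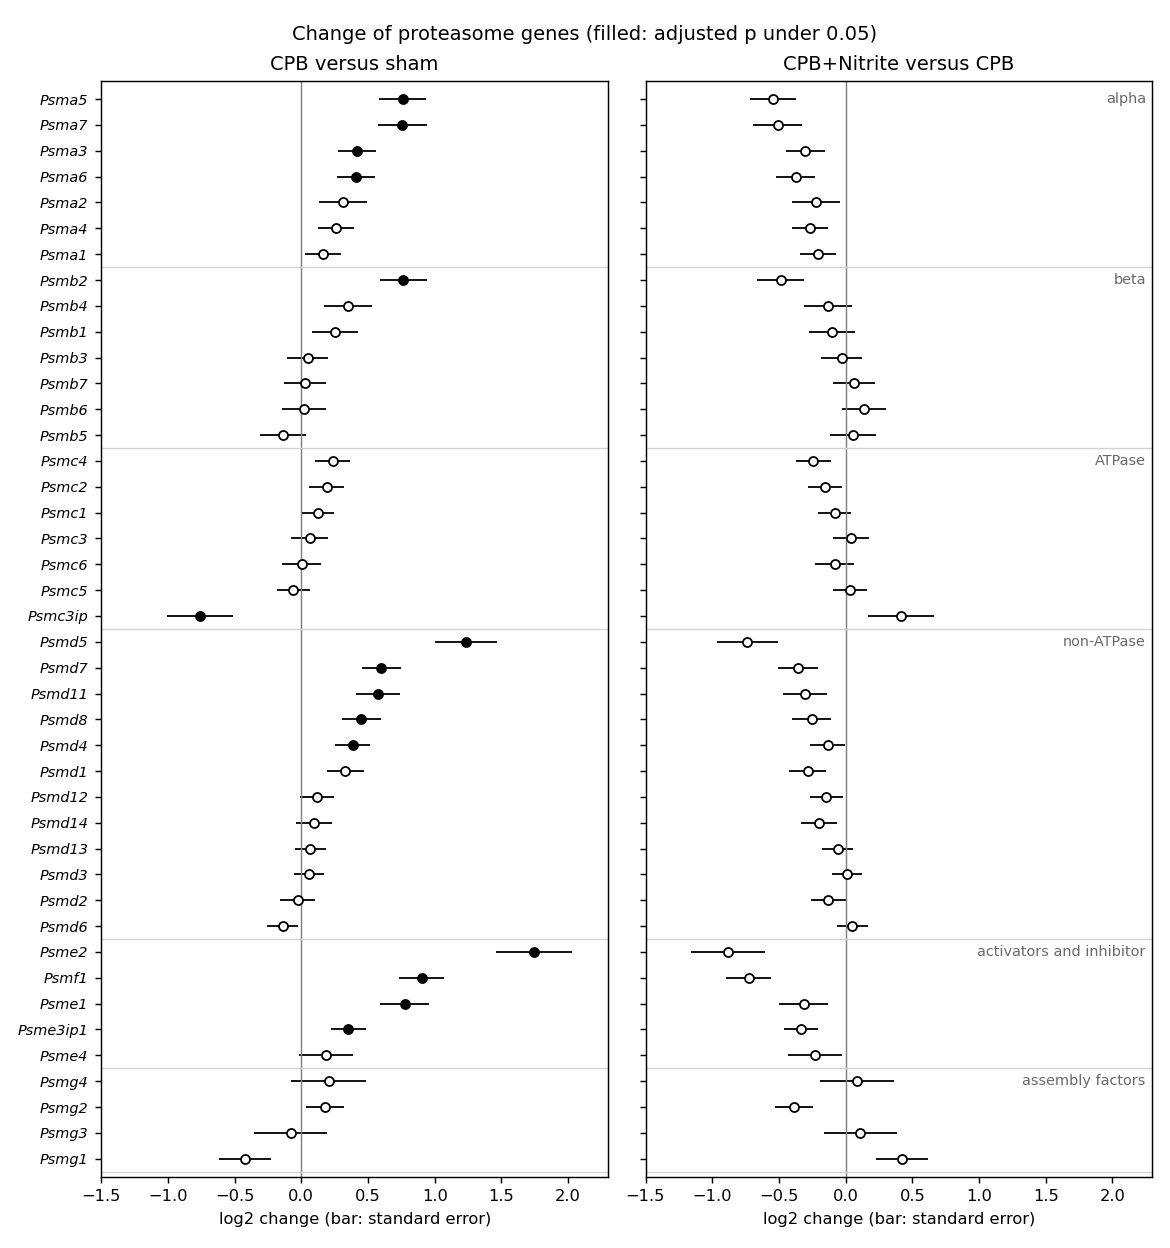
Log2 change of each tested gene with its standard error, for CPB against sham on the left and CPB+Nitrite against CPB on the right, genes grouped by role. Filled points passed an adjusted p of 0.05: 14 higher and 1 lower on the left, none on the right. On the right 31 of 42 changes were negative, against 6730 of 14664 over all genes tested. Both panels use the same CPB libraries.

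Of the alpha-ring genes 4 of 7 rose (median 0.41), and of the beta genes 1 of 7 (median 0.05), beside 21.7% of all genes. The difference between the rings was not tested. Psma5, an alpha subunit (chr2:195896365-195919731 in mRatBN7.2, the build of the files), was at 57.5, 63.2, 71.0 and 50.3 CPM in sham 1 to 4, 96.4, 86.3, 122 and 106 CPM in CPB 1 to 4, and 90.9, 64.6, 54.5 and 71.2 CPM in CPB+Nitrite 1 to 4. Every CPB library lay above every sham library, and the nitrite libraries overlapped both groups. Its log2 change with bypass was 0.76 (SE 0.17, edgeR adjusted p = 0.00558), a fold of 1.69.

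Psma7, also of the alpha ring (chr3:167137263-167143672), was at 177, 189.8, 194 and 133 CPM in the sham libraries, 283, 242, 346 and 303 CPM in the CPB libraries and 263, 218, 164 and 179.5 CPM in the nitrite libraries. Sham and CPB did not overlap, and sham 4 was the lowest of its group. The log2 change of Psma7 was 0.76 (SE 0.18, edgeR adjusted p = 0.00721). Psma3 and Psma6 rose less, with log2 changes of 0.42 and 0.41 (edgeR adjusted p = 0.0347 and 0.037), and their sham and CPB values overlapped. Both calls were lost without sham 1, sham 2, sham 4, CPB 3 or CPB 4. Psma1 had the largest p of the ring, with 68.9, 80.1, 93.1 and 71.7 CPM in sham, 84.7, 77.7, 97.3 and 91.6 CPM in CPB and 79.5, 85.9, 67.4 and 71.1 CPM in CPB+Nitrite. These groups overlapped (log2 0.16, SE 0.14, edgeR adjusted p = 0.342). Psma2 and Psma4 had log2 values of 0.31 and 0.26 and did not pass.

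Among beta subunits Psmb2 (chr5:138970533-139021137) alone passed. It was at 35.1, 39.4, 45.2 and 32.4 CPM in sham, 67.5, 55.6, 73.7 and 61.4 CPM in CPB and 60.4, 43.5, 34.4 and 46.1 CPM in CPB+Nitrite. All 4 CPB values exceeded all sham values, and CPB+Nitrite 1 alone of the nitrite libraries reached the CPB range. The log2 change of Psmb2 was 0.76 (SE 0.18, edgeR adjusted p = 0.00569), a mean of 38.0 ± 5.60 CPM in sham against 64.5 ± 7.79 CPM in CPB (mean ± SD, n = 4). Psmb4, a structural beta subunit, was at 141, 154, 158 and 105 CPM in sham, 203, 145, 199 and 164 CPM in CPB and 176, 186, 120.4 and 167 CPM in CPB+Nitrite. Its groups overlapped and its log2 value was 0.35 (SE 0.18, edgeR adjusted p = 0.134).

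The constitutive catalytic subunits did not pass the test. Psmb6, which carries the caspase-like site, was at 69.1, 74.1, 70.9 and 51.8 CPM in sham, 83.1, 53.2, 71.2 and 62.0 CPM in CPB and 73.2, 85.6, 65.2 and 72.4 CPM in CPB+Nitrite. The sham and CPB ranges overlapped, with CPB 1 above all sham values (log2 0.02, SE 0.16, edgeR adjusted p = 0.932). Psmb5, with the chymotrypsin-like site and taken with Psmb7 after its values were seen, was at 104, 116, 113 and 74.9 CPM in sham, 103, 76.8, 98.8 and 91.6 CPM in CPB and 91.4, 121, 90.5 and 81.0 CPM in CPB+Nitrite. The log2 value of Psmb5 was −0.14 (SE 0.17) and that of Psmb7, with the trypsin-like site, was 0.03 (SE 0.16). Psmb1 and Psmb3 had log2 values of 0.25 and 0.05. Psmb8 and Psmb9, the inducible subunits that replace Psmb5 and Psmb6, stood in the same libraries between 10.2 and 16.5 CPM (Psmb8) and between 8.22 and 14.4 CPM (Psmb9) in sham. In CPB they lay between 96.0 and 201 CPM and between 99.9 and 184 CPM. Both rose, by log2 3.46 and 3.81 (edgeR adjusted p = 0.00101 for each).

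**Figure D2:**
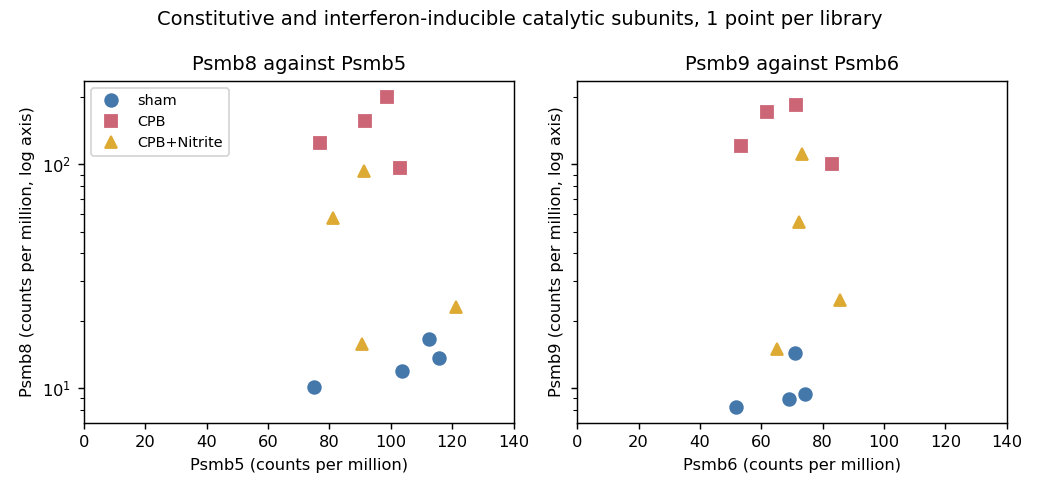
Level in counts-per-million of an inducible catalytic subunit (vertical, log axis) against the constitutive subunit it replaces (horizontal, linear axis), 1 point per library. Psmb8 separates CPB (96.0 to 201 CPM) from sham (10.2 to 16.5 CPM) while the Psmb5 values of the 2 groups share a range. Summed over Psmb8 and Psmb9, the nitrite libraries ran from 30.7 to 204 CPM. That range overlapped those of sham (18.4 to 31.0 CPM) and CPB (196 to 385 CPM).

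No ATPase of the cap passed in either direction (0 of 6, median 0.09), where 43.2% of all genes did. None had an unadjusted p under 0.05 in edgeR, where 52.6% of all genes did. None passed the adjusted threshold in any of 21 refits with another scaling, filter, test or set of libraries (DESeq2 and limma voom among them). Psmc4 had the smallest p of the ATPases, at 112, 113, 104 and 87.4 CPM in sham, 138, 106, 125 and 122 CPM in CPB and 117, 96.0, 96.4 and 105 CPM in CPB+Nitrite (log2 0.24, SE 0.13, edgeR adjusted p = 0.162). Psmc6 had the largest p, at 69.4, 79.5, 86.6 and 65.1 CPM in sham, 88.9, 67.7, 80.9 and 64.0 CPM in CPB and 66.0, 82.8, 67.0 and 68.9 CPM in CPB+Nitrite (log2 0.00, SE 0.15). In both genes CPB overlapped sham. Psmc1, Psmc2, Psmc3 and Psmc5 had log2 values of 0.12, 0.19, 0.06 and −0.06.

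Psmc3ip, the recombination factor that shares the symbol stem, fell. It was at 7.93, 10.5, 9.57 and 7.83 CPM in sham, 7.19, 4.53, 5.55 and 3.82 CPM in CPB and 6.30, 9.75, 6.61 and 5.51 CPM in CPB+Nitrite. Every CPB value lay below every sham value (log2 −0.76, SE 0.25, edgeR adjusted p = 0.0259). That call was lost without sham 2, sham 3, CPB 2, CPB 3 or CPB 4.

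Of the 12 non-ATPase genes of the cap 5 rose and none fell (median 0.22), where 21.7% of all genes rose and 21.5% fell. The largest change was in Psmd5 (chr3:18133717-18151029), which encodes a chaperone for assembly of the base and is not a subunit of the finished cap. Without Psmd5, 4 of 11 rose (median 0.12). Psmd5 was at 38.7, 42.1, 47.8 and 36.2 CPM in sham, 122, 97.2, 86.7 and 81.6 CPM in CPB and 74.2, 36.5, 46.0 and 76.0 CPM in CPB+Nitrite. The CPB values lay above all sham and all nitrite values, and CPB+Nitrite 2 and 3 lay within the sham range. The log2 change of Psmd5 with bypass was 1.23 (SE 0.23, edgeR adjusted p = 0.00216), a fold of 2.35.

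Psmd7, a scaffold partner of the cap's deubiquitinase, was at 80.9, 72.3, 89.2 and 66.4 CPM in sham, 124, 111, 111 and 123 CPM in CPB and 114, 75.4, 81.3 and 94.2 CPM in CPB+Nitrite. Sham and CPB did not overlap (log2 0.60, SE 0.15, edgeR adjusted p = 0.00791). Psmd11, a subunit that braces the lid of the cap, rose by log2 0.58 with a narrow spread in CPB, from 75.2 ± 2.88 CPM in sham to 112 ± 1.81 CPM in CPB (mean ± SD, n = 4). Psmd4, a ubiquitin receptor, and Psmd8, a lid subunit, rose by log2 0.39 and 0.45 (edgeR adjusted p = 0.0306 and 0.0276), with no overlap of sham and CPB. Leaving out any of sham 2, sham 4, CPB 1 or CPB 3 ended both of these calls, and the call of Psmd4 was also lost without sham 3 or CPB 4 and that of Psmd8 without sham 1.

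The other cap subunits did not pass. Psmd2, a large subunit that binds ubiquitin and shuttle factors, was at 235, 211, 218 and 219 CPM in sham, 221, 205, 199 and 242 CPM in CPB and 213, 160.0, 197 and 222 CPM in CPB+Nitrite (log2 −0.03, SE 0.13, edgeR adjusted p = 0.881). Its groups overlapped, with CPB+Nitrite 2 the lowest library. Psmd14, the deubiquitinase, had a log2 value of 0.09 (SE 0.14). Psmd1, a large scaffold subunit of the cap, had CPB values above all sham values, but its log2 value of 0.33 missed the threshold (edgeR adjusted p = 0.0682). It passed with RLE factors, with the 2 groups alone, in DESeq2 and limma voom, and without CPB+Nitrite 2 (log2 0.33, edgeR adjusted p = 0.0347). The log2 values of Psmd3, Psmd6, Psmd12 and Psmd13 ran from −0.14 to 0.12.

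Of the 5 activator, inhibitor and Psme3-interactor genes tested 4 rose and none fell (median 0.78), where 21.7% of all genes rose and 21.5% fell. Psme2 had the largest log2 change of the 42 genes. Psme2, the beta chain of the interferon-inducible activator ring (chr15:29078500-29082946), was at 51.1, 51.8, 67.8 and 37.0 CPM in sham, 157, 142, 221 and 175 CPM in CPB and 149, 76.9, 54.7 and 96.7 CPM in CPB+Nitrite. The lowest CPB library stood well above the highest sham library, and the nitrite libraries ran from the sham range to the CPB range. The log2 change of Psme2 with bypass was 1.74 (SE 0.28, edgeR adjusted p = 0.00132), a fold of 3.35. Its partner Psme1, the alpha chain (chr15:29068729-29071890), was at 139, 157, 162 and 118 CPM in sham, 235, 213, 287 and 253 CPM in CPB and 233, 234, 137 and 191 CPM in CPB+Nitrite. Sham and CPB did not overlap (log2 0.78, SE 0.18, edgeR adjusted p = 0.00655). CPB+Nitrite 3 was the only nitrite library of Psme1 inside the sham range.

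Psmf1, the inhibitor gene (chr3:140235373-140260546), was at 33.0, 27.6, 27.2 and 26.2 CPM in sham, 41.1, 49.4, 62.2 and 60.7 CPM in CPB and 39.8, 31.1, 27.0 and 30.8 CPM in CPB+Nitrite. Every CPB value exceeded every sham and every nitrite value (log2 against sham 0.90, SE 0.17, edgeR adjusted p = 0.00216). Psme4, the activator known from spermatids and DNA repair, was at 108, 114, 136 and 142 CPM in sham, 158, 148, 124 and 139 CPM in CPB and 150.0, 71.7, 125 and 138 CPM in CPB+Nitrite, with overlap throughout (log2 0.19, SE 0.20). Psme3ip1 rose by log2 0.35 (edgeR adjusted p = 0.04), a call that leaving out any CPB library, or sham 2, 3 or 4, ended.

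**Figure D3:**
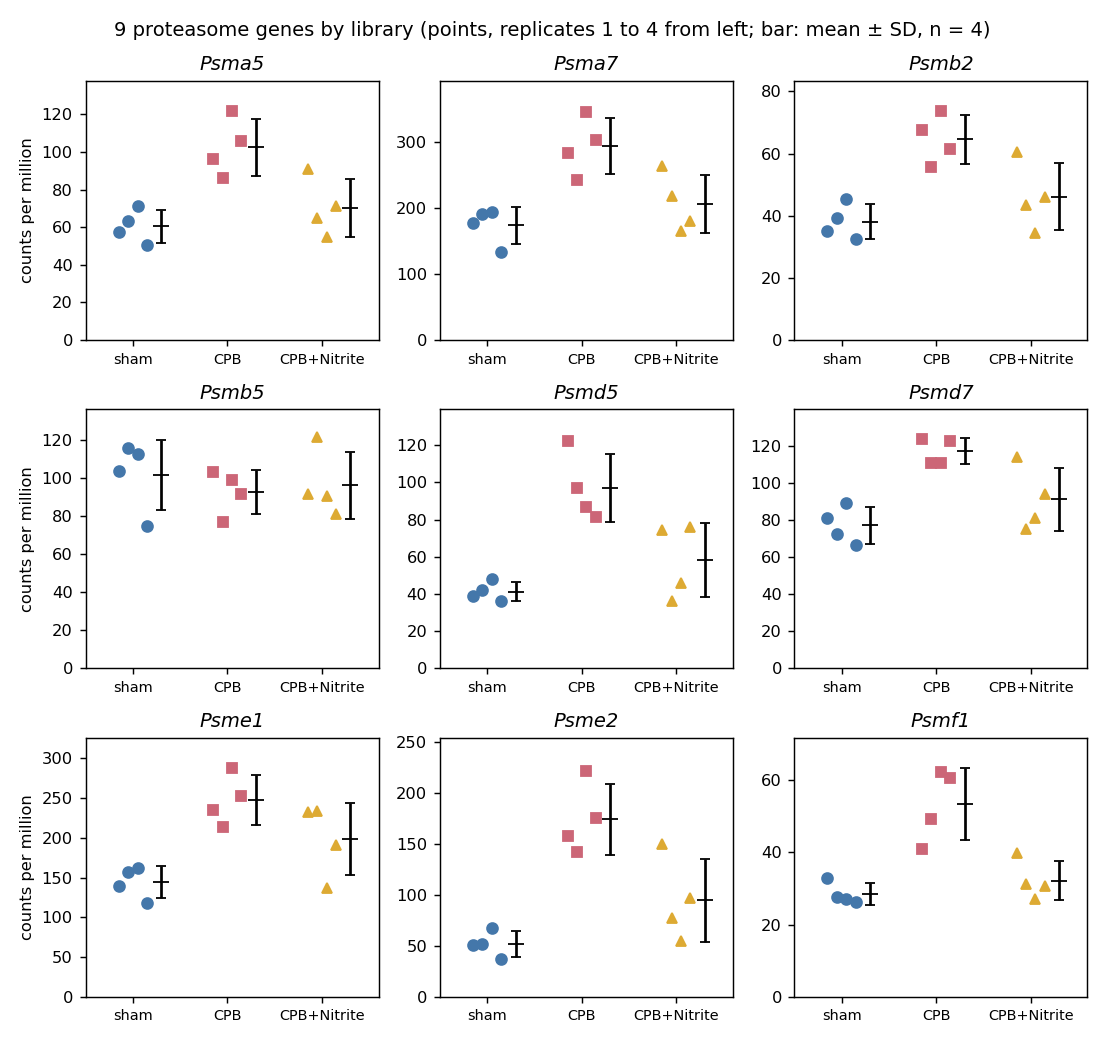
Counts-per-million of 9 genes in each library, as points in replicate order, with the mean and SD of each group of 4 beside them. For the 8 genes that rose under all 21 refits, all CPB points lie above all sham points, while the ranges of Psmb5 overlap between all groups.

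Of the 4 assembly factors of the alpha ring none passed (median 0.05), where 43.2% of all genes did. In edgeR 1 had an unadjusted p under 0.05, against 52.6% of all genes. Psmg1 was at 23.6, 26.6, 22.4 and 21.6 CPM in sham, 18.7, 17.3, 17.6 and 16.7 CPM in CPB and 17.6, 34.8, 19.7 and 22.0 CPM in CPB+Nitrite. All CPB values lay below all sham values, although the log2 value of −0.42 (SE 0.19) did not pass (edgeR adjusted p = 0.0938). Without CPB+Nitrite 2, which had the highest Psmg1 level of all libraries, Psmg1 passed (log2 −0.42, SE 0.12, edgeR adjusted p = 0.0146), as it did with library totals, with the 2 groups alone and in limma voom. Psmg2, the partner of Psmg1 in the chaperone pair, was at 14.5, 14.4, 17.1 and 13.7 CPM in sham, 19.6, 16.2, 16.5 and 15.1 CPM in CPB and 13.9, 13.3, 12.2 and 12.1 CPM in CPB+Nitrite (log2 0.18, SE 0.14). Psmg3 was low, at 9.39, 9.54, 9.04 and 6.33 CPM in sham, 12.6, 6.42, 7.42 and 5.96 CPM in CPB and 6.89, 12.5, 8.23 and 7.42 CPM in CPB+Nitrite (log2 −0.08, SE 0.28). Psmg4 lay between 2.45 and 5.17 CPM (log2 0.20).

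Of the 14 genes that rose, 8 did so under all 21 refits: Psma5, Psma7, Psmb2, Psmd5, Psmd7, Psme1, Psme2 and Psmf1. The same count over all genes that rose was not taken, so this share has no background beside it. Psmd11 lost its call with library totals alone. The scaling set the size of the group medians. With library totals in place of TMM factors, the median over all genes moved from −0.05 to −0.24, the core median from 0.29 to 0.10 and the regulatory median from 0.18 to −0.005, and 8 genes rose and 2 fell, where 15.6% of all genes rose and 29.1% fell. Relative to all genes, the core median was 0.34 higher and the regulatory median 0.23 higher with TMM factors. A factor per library moves all genes by nearly the same amount, so these differences cannot show whether the scaling matters.

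Within each group the core genes ranked the libraries alike. Among sham libraries, sham 4 was lowest in 13 of 14 core genes and in 22 of 28 regulatory genes, and sham 3 was highest in 11 core genes. CPB 2 was the lowest CPB library in all 14 core genes, with CPB 3 highest in 9 and CPB 1 in the other 5. In the nitrite group, CPB+Nitrite 3 was lowest in 13 core genes, and CPB+Nitrite 2 was highest in 9. The core median relative to the sham mean was −0.01, 0.12, 0.19 and −0.35 (log2) in sham 1 to 4, and 0.37, 0.07, 0.48 and 0.23 in CPB 1 to 4, so that CPB 2 lay inside the sham range. In CPB+Nitrite 1 to 4 it was 0.13, 0.29, −0.15 and 0.07. Core transcripts summed to 1050 to 1520 CPM in sham, 1423 to 1900 CPM in CPB and 1198 to 1621 CPM in CPB+Nitrite, with overlap between all groups. Sham 4 had the fewest reads of the sham libraries (19.2 M), while CPB 2 (19.1 M) was deeper than CPB 4 (16.8 M). The part of depth in these ranks was not tested.

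**Figure D4:**
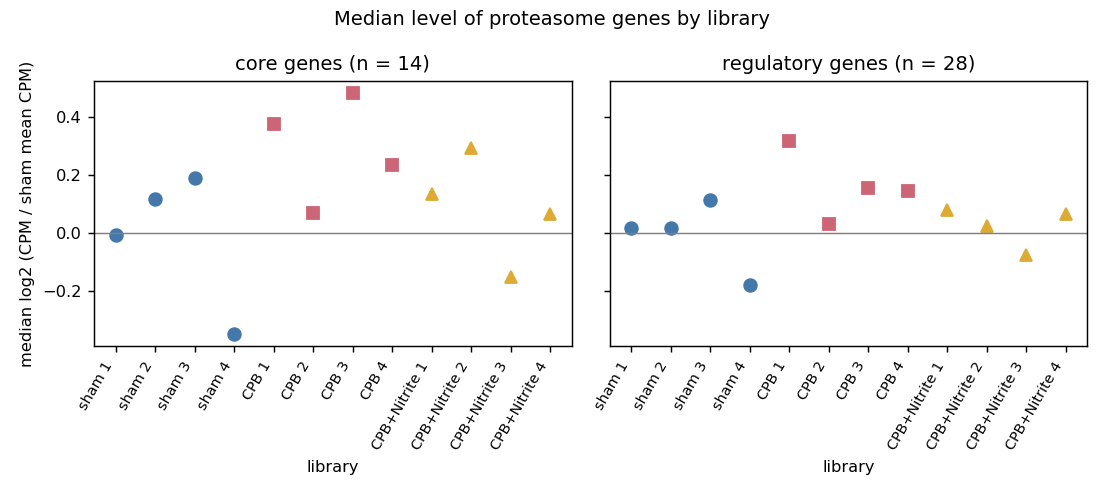
Median log2 level of the 14 core and 28 regulatory genes tested, relative to the sham mean, 1 point per library (circles sham, squares CPB, triangles CPB+Nitrite). The CPB points of the core run from 0.07 to 0.48 and sham from −0.35 to 0.19, and the regulatory points span a narrower range.

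Adding nitrite to bypass gave no gene past the threshold: 0 of 42 passed in edgeR in either direction, where 0% of all genes did. At an unadjusted p under 0.05 the count was 11 of 42, 10 of them lower, against 29.4% of all genes in either direction and 12.2% lower. In DESeq2 5 genes passed, all lower, where 5.84% of all genes were lower and 8.85% higher. In limma voom none did, and 1 gene of 14664 was higher (0.00682%). The median log2 difference from CPB was −0.22 over core and −0.15 over regulatory genes, and 0.05 over all genes tested. In 5 genes every nitrite value lay below every CPB value (Psma3, Psma6, Psmd5, Psmf1 and Psmg2), where 6.27% of all genes were separated in this direction, and in none did every nitrite value lie above (6.44% of all genes).

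The smallest p was that of the inhibitor gene Psmf1, with a mean of 32.2 ± 5.42 CPM in CPB+Nitrite against 53.3 ± 9.97 CPM in CPB (mean ± SD, n = 4; log2 −0.73, SE 0.17, edgeR adjusted p = 0.0558). Psmd5 followed, with 58.2 ± 19.9 CPM in CPB+Nitrite against 96.9 ± 18.1 CPM in CPB (log2 −0.74, SE 0.23, edgeR adjusted p = 0.0733). For Psme2, Psma5, Psma7 and Psmb2 the log2 differences were −0.88, −0.54, −0.51 and −0.49, none past the threshold. Psmc3ip and Psmg1, whose CPB values lay below all sham values, had positive differences of 0.41 and 0.42, and also did not pass. In both genes CPB+Nitrite 2 was the highest nitrite library, at 9.75 and 34.8 CPM. Over the 21 refits the difference ran from 0.21 to 0.59 for Psmc3ip and from 0.17 to 0.55 for Psmg1. How many genes passed between CPB+Nitrite and CPB turned on CPB+Nitrite 1. Without it, 3 core genes (Psma5, Psma7, Psmb2) and 5 regulatory genes (Psmd5, Psmd7, Psme2, Psme3ip1, Psmf1) were lower than in CPB, Psmf1 by log2 −0.88 (edgeR adjusted p = 0.0115) and Psme2 by log2 −1.23 (edgeR adjusted p = 0.0122). In that refit 8.67% of all genes were lower and 10.6% higher. Without CPB+Nitrite 2 none was, as with all genes tested, and Psmf1 stood at −0.71 (edgeR adjusted p = 0.115).

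The nitrite libraries differed widely among themselves in the genes that bypass raised. Of those 14 genes, CPB+Nitrite 1 lay above every sham library in 12, CPB+Nitrite 4 in 8, CPB+Nitrite 2 in 4 and CPB+Nitrite 3 in 1. The 14 were chosen against these same sham libraries, and the same counts over all genes were not taken. The summed level of the injured-tubule markers Havcr1, Krt20 and Lcn2 spread in the same groups, from 4.91 to 34.9 CPM in sham, 615 to 1152 CPM in CPB and 29.0 to 743 CPM in CPB+Nitrite. Havcr1, the kidney injury molecule, stood at 721, 35.5, 22.6 and 275 CPM in CPB+Nitrite 1 to 4. The 9 leukocyte markers summed to 26.3 to 47.4 CPM in sham, 42.5 to 52.6 CPM in CPB and 46.4 to 61.4 CPM in CPB+Nitrite. Of the 8 tested, 3 were higher and 2 lower in CPB than in sham, and Mpo was at 0 in several libraries. Proximal tubule markers were lower in 3 of 5 after bypass. The 3 collecting duct markers summed to 851 to 1249 CPM in sham, 435 to 738 CPM in CPB and 851 to 2938 CPM in CPB+Nitrite, so that nitrite and CPB libraries did not overlap. Podocyte markers (3 genes) summed to 157 to 299 CPM in CPB and 226 to 710 CPM in CPB+Nitrite, and endothelial markers (3 genes) to 58.5 to 115 CPM and 102 to 376 CPM. The median log2 difference between CPB+Nitrite and CPB was 0.86 over the podocyte and 0.60 over the endothelial markers, and no marker of these 3 lists passed. The part of injury and of cell makeup in the proteasome changes was not tested.

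**Figure D5:**
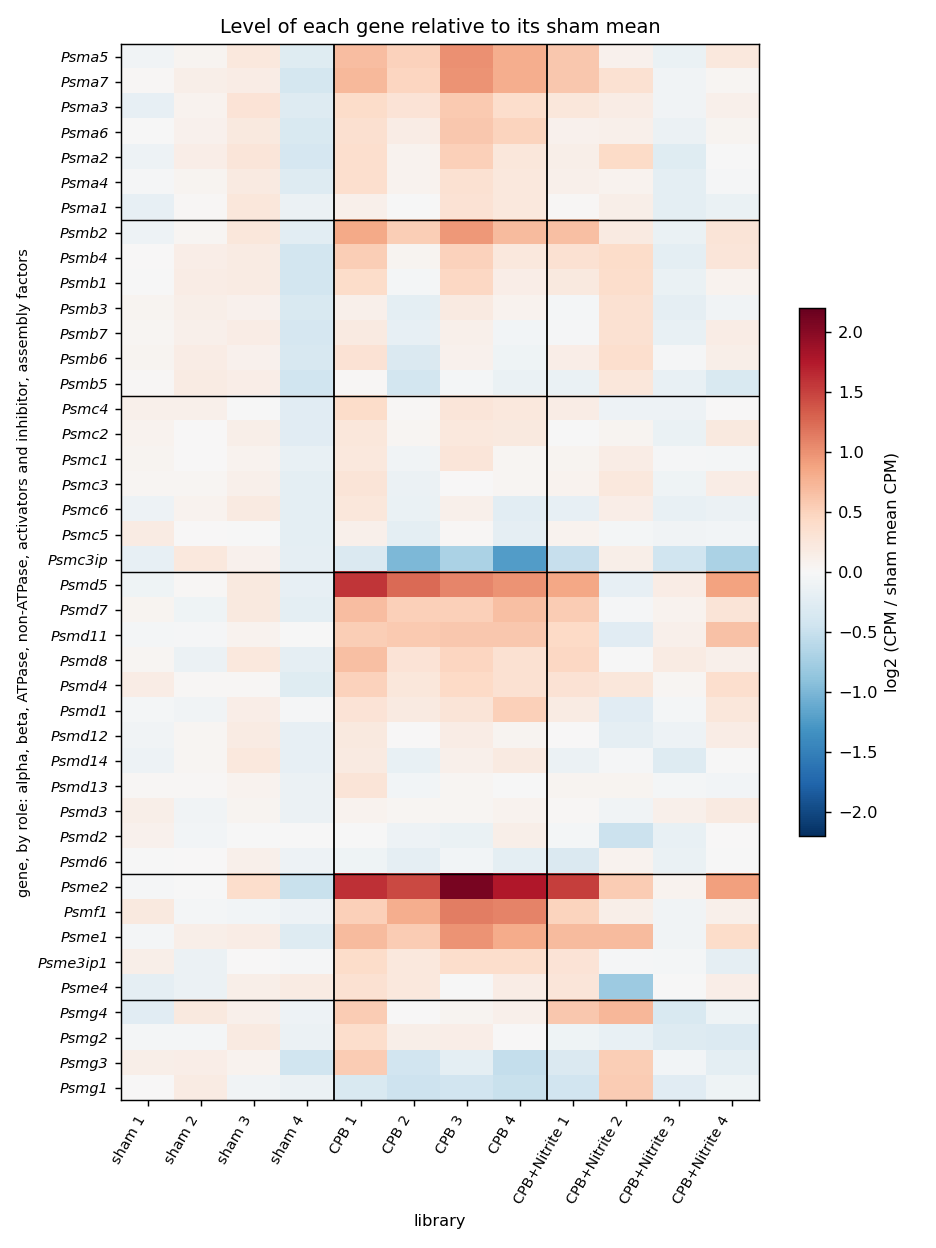
Log2 level of each tested gene in each library relative to its sham mean, red higher and blue lower, genes ordered by role and by change within a role. Red is deepest for Psme2 in the CPB columns, sham 4 is mostly blue, and the nitrite columns differ from one another, with CPB+Nitrite 3 close to sham.

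Between CPB+Nitrite and sham, 0 of 42 genes passed in edgeR, where 3.85% of all genes were higher and 0.955% lower (4.81% in either direction). No gene had all nitrite values above or all below the sham values, where 5.64% and 5.87% of all genes did. At an unadjusted p under 0.05, 3 regulatory genes were higher, where 16.3% of all genes were higher and 27.4% passed in either direction. DESeq2 called 1 gene higher, Psme2, where it called 9.68% of all genes higher and 4.79% lower. The test by limma voom called Psmd5 and Psme2 higher, beside 10.9% of all genes, and 8.67% lower. Psme2 had the smallest p, at 94.4 ± 40.4 CPM against 51.9 ± 12.6 CPM in sham (mean ± SD, n = 4; log2 0.86, SE 0.28, edgeR adjusted p = 0.0795). Psmd5 was at log2 0.50 and Psme1 at 0.46. Without CPB+Nitrite 2 Psmd5 passed (log2 0.67, edgeR adjusted p = 0.0446), where 8.96% of all genes were higher and 3.19% lower, and without CPB+Nitrite 3 Psme1 and Psme2 passed (log2 0.60 and 1.05, edgeR adjusted p = 0.0216 and 0.0146), where 10.9% were higher and 9.11% lower. The core median was 0.10 and the regulatory median 0.03, against 0.04 for all genes. This comparison shares its sham libraries with the first and its nitrite libraries with the second. The first and second share their CPB libraries, so a high CPB value raises the first difference and lowers the second. The comparisons are therefore not independent. Psmb8 and Psmb9 did pass between CPB+Nitrite and sham, at log2 1.85 and 2.33 (edgeR adjusted p = 0.0459 and 0.0354). Against CPB alone they stood at −1.61 and −1.48 and did not pass.

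Genes around the proteasome were taken from lists, whose counts stand beside 21.7% of all genes higher and 21.5% lower with bypass. Of 12 tested subunits and associated factors outside the naming rule, 5 rose with bypass and none fell. Zfand2a, a stress-induced protein that binds the cap, rose by log2 4.39 (edgeR adjusted p = 0.00301), Akirin2, which brings proteasomes into the nucleus, by 1.03, and Ubr4, a ubiquitin ligase of the N-degron pathway, by 1.31. Txnl1 and Adrm1, a redox protein and a ubiquitin receptor of the cap, rose by 0.41 and 0.36. Pomp, the maturation factor of the barrel, did not pass, with 81.7, 79.8, 83.7 and 63.6 CPM in sham and 111, 80.4, 110.3 and 93.2 CPM in CPB (log2 0.36, edgeR adjusted p = 0.112). In CPB+Nitrite Pomp was at 97.8, 110.0, 65.8 and 81.3 CPM, a log2 difference of −0.16 from CPB and 0.20 from sham, neither past the threshold. Akirin2 and Zfand2a were also higher in CPB+Nitrite than in sham (log2 0.64 and 3.32, edgeR adjusted p = 0.0498 and 0.0473).

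Transcription regulators of proteasome genes gave 15 tested rows of 14 symbols, as Mafk had 2 rows, and 9 rose and 1 fell. Nfe2l1 was at 223, 171, 198 and 198 CPM in sham, 239, 268, 306 and 319 CPM in CPB and 269, 226, 261 and 261 CPM in CPB+Nitrite. Its sham values lay below all others (log2 with bypass 0.52, edgeR adjusted p = 0.0111). Nfe2l2, the antioxidant regulator, was at 144, 114, 168 and 148 CPM in sham, 220.4, 214, 251 and 231 CPM in CPB and 279, 105, 167 and 263 CPM in CPB+Nitrite. It rose with bypass by 0.67 (edgeR adjusted p = 0.0479), with no overlap of sham and CPB. Against CPB, nitrite left Nfe2l1 and Nfe2l2 at log2 differences of −0.16 and −0.17, and against sham at 0.36 and 0.50, none past the threshold. The NF-Y subunit genes Nfya and Nfyb rose to 1.99 and 2.08 times their sham level, and Mafk, a small MAF partner, by 1.56 on the log2 scale in its abundant row. Ngly1, the deglycosylase that activates NFE2L1, fell, from 51.7, 63.0, 60.4 and 58.9 CPM in sham to 39.7, 35.8, 35.7 and 30.1 CPM in CPB (log2 −0.73, edgeR adjusted p = 0.00351).

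Of 10 tested genes for ubiquitin, its activation and its recycling, 3 rose, among them the ubiquitin gene Ubb by log2 1.03 and the hydrolase gene Uchl3 by 1.32. Of 15 tested genes of substrate delivery 3 rose, a share near that of all genes: the shuttle Rad23b by 0.64, and the VCP cofactors Nploc4 and Nsfl1c by 0.61 and 0.43. None of these lists had a gene past the threshold between CPB+Nitrite and CPB. A gene named only AABR07040855.1, whose deposited description is that of Psmd10, an assembly chaperone of the base, was at 26.2, 28.4, 40.6 and 21.7 CPM in sham and 45.5, 42.6, 61.2 and 57.9 CPM in CPB. It rose by log2 0.82 (edgeR adjusted p = 0.00652) and was found after the symbols had been matched, so it is not among the 44.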

How the data were processed

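RNA was measured in 12 rat kidney libraries, 4 per group, grouped and numbered by their labels. Per the labels' protocols the libraries were made with a directional kit. The submitters' processing notes name build mRatBN7.2 and, with no order, Salmon 1.2.1, cutadapt 1.18, bcl2fastq 2.19 and R 3.5.1. The authors deposited estimated counts per gene, not normalised, of which 33.1% of non-zero values were not whole (tolerance 1e-06). The summing of transcripts to genes is not given in the sources used here. The authors also deposited a scaled signal per gene, the counts times 1 factor per library, which supplied symbols, biotypes and coordinates and served as an alternative scaling. Genes whose reads are shared with a near-identical copy cannot be resolved in these tables.

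Counts were rounded and filtered with edgeR's filterByExpr at a minimum count of 10, leaving 14664 genes with 99.95% of reads. All 12 libraries entered 1 edgeR 4.0.16 fit (R 4.3.3, TMM factors 0.887 to 1.11, glmQLFit and glmQLFTest, no covariate, two-sided tests, Benjamini-Hochberg over all genes tested, threshold 0.05). Precision was set by 4 libraries a group, with 9 residual degrees of freedom and a biological coefficient of variation of 0.317. The standard error of a log2 change came from the quasi-likelihood F statistic. Alternatives used RLE factors, library totals, the authors' factors, other filters, DESeq2 1.42.0, limma 3.58.1 voom with sample weights, 2 groups alone, the replicate number as a block and each library left out. Test code was checked on simulated counts.

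The genes and lists were chosen with earlier results of these data known. Values in every library are given for the 2 genes with the smallest p and the 1 with the largest p in each role with bypass, the 2 with the smallest p between CPB+Nitrite and CPB, and Nfe2l1, Nfe2l2 and Pomp, while Psmb8 and Psmb9 are given by ranges. Of each list up to 3 genes with the smallest p were named, except where a gene is not reported here. Psmb5 and Psme1, given in every library, Ngly1 and Havcr1, given in some groups, and Psmd11, Txnl1 and Adrm1 were chosen after their values were seen.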

Additional observations from a re-analysis of the deposited data

Results flagged for a closer look

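In each group of 4 libraries a gene was looked at again where its highest or lowest library lay apart from the other three by a share of the group's range above Dixon's critical value for 4 samples. This held for 4 of 126 gene and group combinations, where chance gives about 1 in 20. Psmb3, a beta subunit, was at 62.6 CPM in sham 4 and at 82.3 to 86.1 CPM in the other sham libraries. Psmg3, an alpha-ring assembly factor, was also low in sham 4, at 6.33 CPM against 9.04 to 9.54 CPM. Psme3ip1 was at 53.4 CPM in CPB 2 and at 59.3 to 59.7 CPM in the other CPB libraries. Psmg4, another assembly factor, was at 4.54 CPM in CPB 1 against 3.13 to 3.35 CPM. The low values came from sham 4 and CPB 2, the libraries that were also lowest of their groups in 13 and 14 of the 14 core genes.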

How the results depend on the processing

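With bypass against sham, 5 core genes rose. Library totals gave 3, no filter on low counts gave 3, and leaving out 1 library gave 3 to 5 (3 without sham 1, sham 2, sham 4, CPB 3 or CPB 4, each time Psma5, Psma7 and Psmb2). For regulatory genes higher, the main count of 9 became 5 with library totals and 6 to 10 with 1 library left out. The 1 regulatory gene that fell, Psmc3ip, was joined by Psmg1 (2 genes) with library totals, with 2 groups alone and with limma voom. The count of regulatory genes lower was 0 without Psmc3ip. It was also 0 without Psmc3ip, Psme3ip1 and Psme1-ps1, a choice made after seeing the data, and 0 to 2 with 1 library left out. Between CPB+Nitrite and CPB, DESeq2 called 1 core gene and 4 regulatory genes lower, and leaving out 1 library gave 0 to 3 core and 0 to 5 regulatory genes lower, the highest without CPB+Nitrite 1. Between CPB+Nitrite and sham, limma voom called 2 and DESeq2 1 regulatory gene higher, and leaving out 1 library gave 0 to 2. The cause of these moves was not tested. No change past the threshold with bypass reversed its sign in any refit, while 17 genes that did not pass had the other sign in at least 1. Same-numbered libraries of different groups had correlations of their deviations from −0.107 to 0.381, and differently numbered ones from −0.313 to 0.352. The ranges overlapped, and the numbers were not taken as pairs. With the replicate number as a block (replicate block), 4 core genes and 9 regulatory genes rose with bypass and 1 fell, Psma6 being lost, and no gene passed in the other comparisons. With 4 libraries a group, standard errors of the log2 changes with bypass ran from 0.11 to 0.28.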
